A study of Mus musculus with 17 samples.

Results

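The serotonin receptor genes described here were the 10 members Htr1a, Htr1b, Htr1d, Htr1f, Htr2a, Htr2c, Htr3a, Htr4, Htr6 and Htr7, chosen by name from 41015 genes to which the deposited transcript counts could be summed. RNA was taken from mouse brain and sequenced in 17 libraries. The 6 transgene libraries came from mice overexpressing HAR1A, a long noncoding RNA, and the 11 control libraries came from normal mice. Both groups had a C57BL/6 background, and the treatment label was what set them apart. The labels state neither the age, the sex, the dissected part of the brain nor the promoter of the transgene, and they do not say whether each library is a separate animal. The p-values therefore measure only the spread between these libraries, which may be technical. The level of HAR1A itself was not analysed here.

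Serotonin is made by raphe neurons of the midbrain and hindbrain, whose axons reach most of the brain, so most receptor mRNA lies in cells that do not make serotonin. The Htr1 receptors couple to Gi proteins and lower cyclic AMP, the Htr2 receptors couple to Gq and phospholipase C, and Htr4, Htr6 and Htr7 couple to Gs and raise cyclic AMP. Htr3a is the exception, a subunit of a ligand-gated cation channel. Some members also act on the serotonin neurons themselves, with Htr1a on their cell bodies and Htr1b on their terminals as autoreceptors.

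Most of the family was higher in the transgene libraries. Across all 17 libraries 7 of the 10 members rose and none fell (edgeR quasi-likelihood test, Benjamini-Hochberg adjustment over all features, threshold 0.05), with Htr2a, Htr6, Htr1f and Htr3a each over 3-fold higher. Htr1b, Htr2c and Htr7 did not pass. No member fell at an unadjusted edgeR p under 0.05 either, nor with DESeq2 or limma-voom after adjustment, here or on lane 4, although Htr7 was called lower on lane 4 when control 8 was left out. Of the 19136 features tested in this comparison, 23% were called higher and 24.4% lower, 47.4% in all. The median log2 fold change was 1.21 over the members and -0.05 over all features tested. All 10 members passed the filter on low counts. In bulk brain RNA, fewer cells of a type and less RNA per cell cannot be told apart.

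All transgene libraries were sequenced on lane 4, together with 3 of the controls, while 6 controls were on lane 8, 1 was on lane 2, and 1 was on lane 6 of a different flow cell. Restricted to lane 4, with 6 transgene and 3 control libraries, Htr1f, Htr2a and Htr6 rose and no member fell, against 13.6% of 19261 features called higher, 12% called lower and 25.6% called in all. The median log2 fold change of the members was 0.66 there, against -0.04 over all features tested. Without control replicate 7, which left controls 8 and 11, the lane 4 comparison called 6 members, with Htr1a, Htr3a and Htr4 added. In that fit 20.7% of features were called.

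Assigned counts ranged from 17067407 to 22642441 per library. The 7 general brain markers examined were tested and present in every group, with a summed level of 3504 to 4824 CPM (counts scaled to a common library size with TMM) in transgene libraries and 4251 to 8142 CPM in controls. Over all libraries 2 of these 7 were called higher and 3 lower, against 23% and 24.4% of all features tested. Markers of several brain regions differed widely between the groups. The 8 telencephalon genes (8 of 8 higher) summed to 499.9 to 723.6 CPM in transgene libraries and 13.9 to 245.8 CPM in controls, and the 9 striatal projection neuron genes (9 of 9 higher) to 1098 to 3081 CPM against 422.4 to 673 CPM. The 10 hindbrain and cord Hox genes (10 of 10 lower) summed to 0.0464 to 0.634 CPM in transgene libraries and 15.4 to 296.2 CPM in controls, with Hoxa2 and Hoxb2 at 0 counts in the transgene libraries. The 7 cerebellar granule cell genes (7 of 7 lower) summed to 71.1 to 497.1 CPM in transgene libraries and 128.9 to 2921 CPM in controls, where control 7 held the lowest value. Other lists were mixed. Of 6 hippocampus genes 4 were higher and 2 lower, with sums of 236.3 to 343.1 CPM in transgene libraries and 240 to 337.3 CPM in controls. Of 6 Purkinje cell genes 4 were called lower over all libraries and 0 on lane 4, where 12% of features were. Their median log2 fold change was -3.02 over all libraries and still -2.21 on lane 4. Of 5 thalamus genes tested 2 were lower. Transgene 2, transgene 6 and control 3 stood apart with little choroid plexus RNA, at 21.3, 30.2 and 69.5 CPM summed over 8 genes, 4, 3 and 1 of which were at 0 counts. Of those 8 genes 6 were tested, and Otx2 alone was called, as lower in the transgene libraries. The part of these differences in the receptor values was not tested.

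What a receptor value rests on differed between members, because the deposited counts were made per transcript and reads that fit several features were set aside (40.2% to 43.4% of each library). Htr1a, Htr1f, Htr2a and Htr4 each had a single deposited transcript row that shared no base with another matched row. Deposited rows not matched to the annotation were not part of this check. The bases particular to 1 row made up 100% of the annotated exon bases of Htr1a, Htr1f and Htr2a and 95% of those of Htr4. The share was 73.1% for Htr1b and 41.8% for Htr6. It was 19.9% for Htr1d, 4.66% for Htr3a, 3.47% for Htr7 and 3.3% for Htr2c. Counts did not follow these bases alone. Row Htr2c-201 had 1 such base, but it held 75 counts in transgene libraries and 82 in controls. How reads were given to 1 row of these genes rather than another was not tested. Values of Htr1d, Htr2c, Htr3a and Htr7 may therefore follow the choice of transcript as well as the level of the gene.

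**Figure D1:**
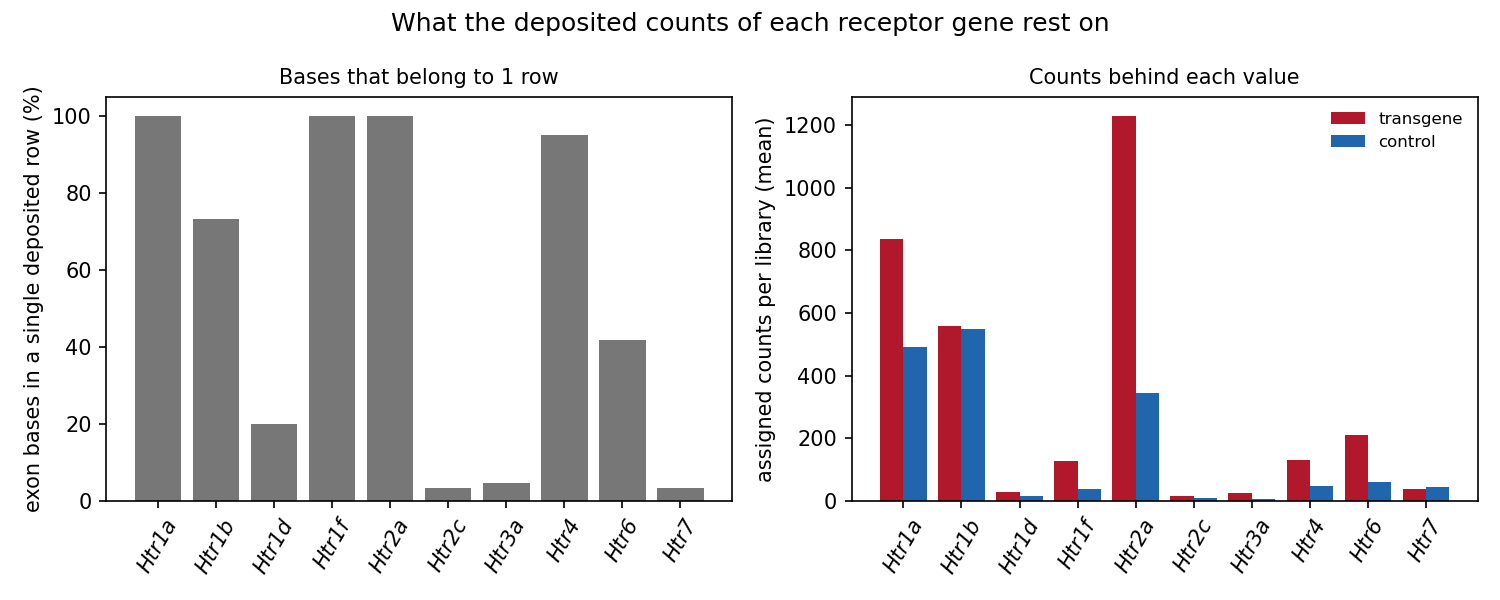
Left, share of annotated exon bases (%) that belong to a single deposited transcript row for each of the 10 receptor genes; right, mean assigned counts per library in the transgene (n = 6) and control (n = 11) groups. Htr2c, Htr3a and Htr7 had under 5% of their exon bases to 1 row and low counts, while Htr1a, Htr1f and Htr2a had 100%.

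The stretches that belong to a single transcript row are short in Htr3a and Htr7. They are shown because the counts of both genes come mostly from the rows that hold them: row Htr3a-201 had 154 counts in transgene libraries and 86 in controls, and row Htr7-201 had 175 in transgene libraries and 364 in controls. Capitals mark coding bases found in that row alone. They are 18 of the 96 bases held by Htr3a-201 alone and 97 of the 102 held by Htr7-201 alone. Lower case marks the 20 bases on either side in the spliced transcript, 5′ to 3′. Both genes lie on the minus strand of mm10. In Htr3a the stretch (chr9:48899991-48900008) lies in the intracellular loop of the channel subunit, where its long and short forms are known to differ. In Htr7 the stretch (chr19:35964381-35964477) belongs to the alternatively spliced end of the coding sequence, which sets the tail of the receptor inside the cell.
Htr3a-201: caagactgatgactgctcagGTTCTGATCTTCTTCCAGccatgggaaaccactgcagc
Htr7-201: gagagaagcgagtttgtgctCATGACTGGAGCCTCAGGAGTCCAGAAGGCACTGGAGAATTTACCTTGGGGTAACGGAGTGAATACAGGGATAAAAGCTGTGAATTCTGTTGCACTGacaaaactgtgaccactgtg

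Promoter windows are shown for Htr6, Htr2a and Htr1f, the members called in both comparisons with no overlap between the groups. They are bases before the RefSeq start of GRCm38.p6 (mm10), cut to those that also lie before the GENCODE start, 5′ to 3′ on the strand of the gene. RefSeq promoter entries were matched for 8 of the 10 members. Capitals mark a GC box, searched as GGGCGG on both strands. The windows are chr4:139075571-139075820 (minus strand) for Htr6, chr14:74640624-74640839 (plus strand) for Htr2a and chr16:65105855-65106034 (minus strand) for Htr1f.
Htr6: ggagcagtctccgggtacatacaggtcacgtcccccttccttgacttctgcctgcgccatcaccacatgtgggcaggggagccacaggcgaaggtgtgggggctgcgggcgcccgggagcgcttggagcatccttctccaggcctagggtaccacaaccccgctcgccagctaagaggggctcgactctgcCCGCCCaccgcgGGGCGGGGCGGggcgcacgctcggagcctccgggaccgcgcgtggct
Htr2a: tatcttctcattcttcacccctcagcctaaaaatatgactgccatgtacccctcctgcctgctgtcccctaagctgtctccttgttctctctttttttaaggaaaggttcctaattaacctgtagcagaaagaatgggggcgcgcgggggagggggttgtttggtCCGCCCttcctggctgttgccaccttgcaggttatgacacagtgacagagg
Htr1f: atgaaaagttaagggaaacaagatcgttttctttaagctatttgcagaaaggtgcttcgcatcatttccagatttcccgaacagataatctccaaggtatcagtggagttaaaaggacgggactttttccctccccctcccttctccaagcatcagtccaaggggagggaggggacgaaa

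The 3 windows had little in common by these motifs. Htr6 held GC boxes on both strands, including a pair that overlap, Htr2a held 1 GC box, and Htr1f held none. A GC box was found in 32.7% of 32851 mouse promoter windows of 250 bases. None of the 3 held TATAAA (12.4% of windows), CCAAT (33.8%), CACGTG (6.02%) or TGACGTCA (1.55%), each searched on both strands. A match describes the letters and is no evidence that a factor binds.

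Among the Gi-coupled members, Htr1f had the largest fold change. Htr1f, the receptor that the migraine drug lasmiditan activates, is at chr16:64924729-65105854 (minus strand). It ranged from 4.20 through a median of 6.57 to 8.49 CPM in transgene libraries, against 0.737, 1.52 and 3.73 CPM in controls. The lowest transgene library was above the highest control, control 3. The log2 fold change was 1.78 ± 0.30 (SE), or 3.43-fold, with an edgeR adjusted p of 0.000101. On lane 4 it was 1.23 ± 0.31, or 2.34-fold (edgeR adjusted p = 0.0156), again with no overlap. Without transgene 2 and transgene 6, the libraries poor in choroid plexus RNA, the lane 4 value was 1.09 and no longer passed (edgeR adjusted p = 0.0628). In all, 3 of the 10 members did not overlap between the groups, against 14.9% of the features tested over all libraries and 25.4% of those tested on lane 4.

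Htr1a (chr13:105443639-105448122, plus strand), a gene whose annotated transcript has 1 exon and whose product silences serotonin neurons and many forebrain neurons, rose 1.76-fold over all libraries. Its lowest, median and highest values were 36.4, 42.8 and 48.5 CPM in transgene libraries and 12.7, 21.7 and 46.0 CPM in controls. The transgene libraries lay close together, with a coefficient of variation of 10.1% against 41.2% in controls. Control 7 was the only control that reached the transgene range. The log2 fold change was 0.82 ± 0.21 (edgeR adjusted p = 0.00408) over all libraries. On lane 4, where control 7 is 1 of the 3 controls, it was 0.33 ± 0.20 (edgeR adjusted p = 0.247), and without control 7 it was 0.65 (edgeR adjusted p = 0.017). The controls on lane 4 averaged 33.3 ± 12.2 CPM (SD, n = 3) and those on other lanes 20.7 ± 7.01 CPM (SD, n = 8).

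Htr1b (chr9:81628291-81633828, minus strand), the autoreceptor on serotonin terminals that also sits on terminals of other neurons, did not pass in either comparison. It averaged 28.3 ± 5.87 CPM in transgene libraries (SD, n = 6) and 26.9 ± 3.33 CPM in controls (SD, n = 11), and 10 of the 11 controls lay at or above the lowest transgene library. The log2 fold change was 0.07 ± 0.11 over all libraries (edgeR adjusted p = 0.611) and 0.07 ± 0.17 on lane 4 (edgeR adjusted p = 0.804). Its 3362 and 6031 counts in the transgene and control groups make it a well measured member, and it had the lowest relative spread of the 10 in controls, 12.4%. An antisense gene, D430036J16Rik, overlaps the Htr1b locus, and no strand setting is stated. All Htr1b counts came from row Htr1b-202. No other matched row on either strand covers 3451 of its 4724 bases. Whether reads of the antisense gene entered the counts was not tested.

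Htr1d (chr4:136423524-136444398, plus strand), a receptor of sensory and other nerve terminals and a target of the triptan drugs, rested on 181 counts in transgene libraries and 186 in controls. It ranged over 0.845, 1.30 and 2.93 CPM in transgene libraries and 0.398, 0.807 and 1.72 CPM in controls, and 5 controls lay within the transgene range. Over all libraries it rose 1.85-fold (log2 fold change 0.88 ± 0.31, edgeR adjusted p = 0.0252). Without transgene 2, the highest library, the log2 fold change was 0.62 and the edgeR adjusted p 0.108. On lane 4 it was 0.23 ± 0.39 (edgeR adjusted p = 0.715).

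Of the Gq-coupled pair, Htr2a was called in both comparisons and Htr2c in neither, and the difference between them was not tested. Htr2a (chr14:74640840-74709494, plus strand), the cortical receptor through which the classical psychedelics act, rose 3.66-fold over all libraries (log2 fold change 1.87 ± 0.29, edgeR adjusted p = 3.56e-05). Its lowest, median and highest values were 39.7, 63.9 and 87.2 CPM in transgene libraries and 7.60, 13.8 and 38.8 CPM in controls. The groups did not overlap, although control 3 came within 1 CPM of the lowest transgene library, transgene 5. On lane 4 Htr2a rose 2.81-fold (log2 fold change 1.49 ± 0.32, edgeR adjusted p = 0.00681), with no overlap. The libraries poorest in choroid plexus RNA were the highest in Htr2a of their groups: transgene 6 and transgene 2 held 87.2 and 81.1 CPM and control 3 held 38.8 CPM.

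Htr2c (chrX:146962513-147197277, plus strand), whose mRNA is edited by ADAR enzymes and is abundant in the choroid plexus, had 97 counts in all transgene libraries together and 126 in all controls. It averaged 0.815 ± 0.14 CPM in transgene libraries (SD, n = 6) and 0.556 ± 0.317 CPM in controls (SD, n = 11). The spread of the transgene libraries, 17.2%, was below the 24.9% that counting error alone gives at that depth. All 6 transgene libraries lay below control 7, at 1.35 CPM. The log2 fold change was 0.54 ± 0.30 over all libraries (edgeR adjusted p = 0.145) and -0.03 ± 0.35 on lane 4 (edgeR adjusted p = 0.959). Without control 7 the value over all libraries was 0.79 (edgeR adjusted p = 0.0122), and the main transcript row on its own was called at 0.81 ± 0.29 (edgeR adjusted p = 0.0289). Only 1 of the 4747 bases of that row was not shared with another row. In the libraries poorest in choroid plexus RNA the gene was at 0.878 CPM in transgene 2 and 0.71 CPM in transgene 6, inside the range of the other transgene libraries, and at 0.233 CPM in control 3, the lowest of the controls. A small nucleolar RNA and several miRNAs lie within the gene.

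Htr3a (chr9:48899213-48911099, minus strand), the channel subunit found in brain mainly in a class of cortical and hippocampal interneurons, rose 3.27-fold over all libraries on few reads. It had 154 counts in transgene libraries and 88 in controls. The lowest, median and highest values were 0.828, 1.15 and 1.95 CPM in transgene libraries and 0.143, 0.314 and 1.26 CPM in controls. Control 7 was the only control above the lowest transgene library, and the next control, control 3, was at 0.524 CPM. The log2 fold change was 1.71 ± 0.34 (edgeR adjusted p = 0.000402). On lane 4 it was 0.98 ± 0.48 (edgeR adjusted p = 0.158), and without control 7 it was 1.96 there (edgeR adjusted p = 0.0126). Markers of the interneurons that carry this subunit had 3 of 8 higher and 2 lower, against 23% and 24.4% of all features tested. Vip, Cck and Npy rose, with log2 fold changes of 1.99, 2.22 and 2.24, and Calb2 and Prox1 fell, with -1.58 and -0.85. The 8 genes summed to 527.2 to 687.7 CPM in transgene libraries and 446.4 to 721.8 CPM in controls. Calb2 and Lamp5, averaging 223 and 181 CPM, made up the largest part of that sum in controls. An antisense gene, Gm32335, overlaps Htr3a.

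Of the Gs-coupled members, Htr6 had the lowest adjusted p of the family in both comparisons. Htr6 (chr4:139061108-139075570, minus strand), a receptor concentrated in the striatum and placed on neuronal cilia, ranged over 7.92, 10.9 and 12.5 CPM in transgene libraries and 1.61, 2.93 and 4.90 CPM in controls. Every transgene library was above every control, the nearest being transgene 1 at 7.92 CPM and control 2 at 4.90 CPM. It rose 3.62-fold over all libraries (log2 fold change 1.86 ± 0.18, edgeR adjusted p = 4.2e-07) and 2.99-fold on lane 4 (log2 fold change 1.58 ± 0.17, edgeR adjusted p = 0.000156).

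Htr4 (chr18:62324204-62496577, plus strand), a receptor of the basal ganglia and hippocampus, rose 2.88-fold over all libraries (log2 fold change 1.53 ± 0.27, edgeR adjusted p = 0.000168). It ranged over 2.48, 6.15 and 9.40 CPM in transgene libraries and 0.990, 2.20 and 4.28 CPM in controls. The overlap came from transgene 6 alone: at 2.48 CPM it was below 4 controls, while the other 5 transgene libraries were above all 11. On lane 4 the log2 fold change was 1.09 ± 0.39 (edgeR adjusted p = 0.0643), and the call depended on the tool, since DESeq2 gave 1.10 with an adjusted p of 0.0184. Leaving out transgene 6 made it 1.25 there (edgeR adjusted p = 0.0143), and leaving out control 7 made it 1.43 (edgeR adjusted p = 0.046).

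Htr7 (chr19:35958734-36057507, minus strand), known in the thalamus, hypothalamus and hippocampus, was the only member with a negative fold change over all libraries, and it did not pass. It averaged 2.05 ± 0.771 CPM in transgene libraries (SD, n = 6) and 2.25 ± 1.19 CPM in controls (SD, n = 11), with 241 and 506 counts, and 9 of 11 controls lay at or above the lowest transgene library. The log2 fold change was -0.14 ± 0.31 over all libraries (edgeR adjusted p = 0.743) and -0.75 ± 0.36 on lane 4 (edgeR adjusted p = 0.158). It was 0.07 over all libraries without control 7, the highest library at 5.02 CPM. On lane 4 it was -1.07 without control 8 (edgeR adjusted p = 0.0395), which is a call as lower, and -0.33 without control 7.

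**Figure D2:**
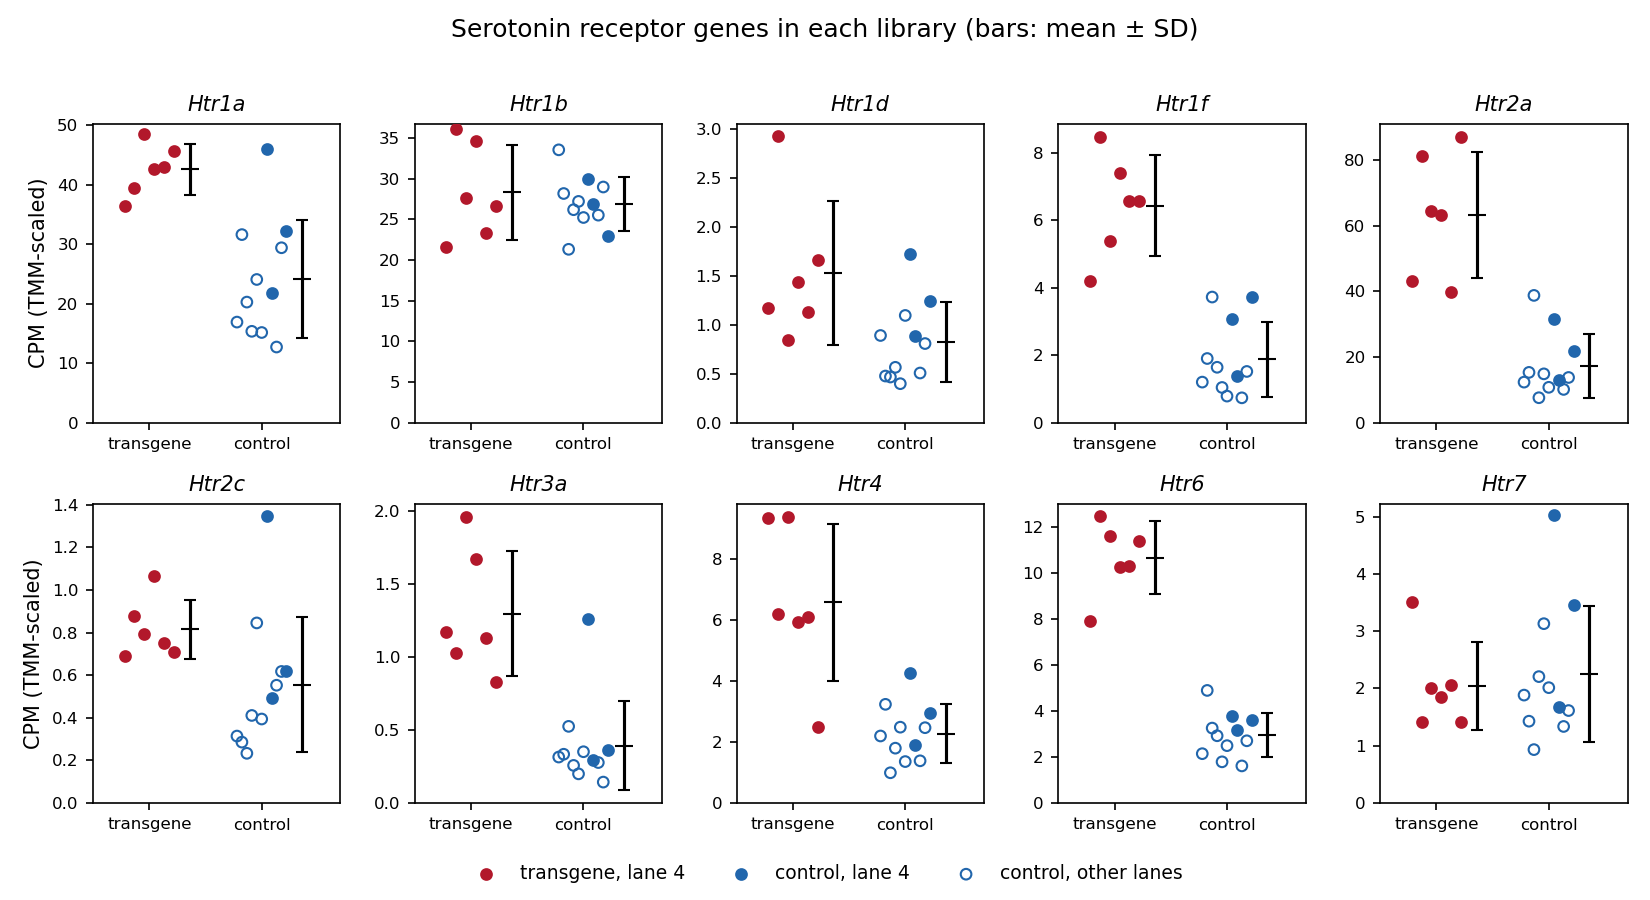
CPM (TMM-scaled) of each receptor gene in every library, transgene (n = 6, left) and control (n = 11, right); filled points were sequenced on lane 4, open points on other lanes, and bars give mean ± SD. Htr1f, Htr2a and Htr6 do not overlap between the groups, while Htr1b and Htr7 share most of their range.

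Of 20 deposited rows of the members, 10 passed the filter and 8 were called, all of them higher, against 44.8% of 23353 rows called, 23.7% higher and 21.1% lower. The tested rows not called were those of Htr1b and Htr7. The main row of Htr2c was called although the sum over its gene was not. That row had 1 base of its own and 75 and 82 counts in the transgene and control groups. Its call may depend on how reads were divided between rows, which was not tested. Whether members differed from each other in their response was not tested.

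**Figure D3:**
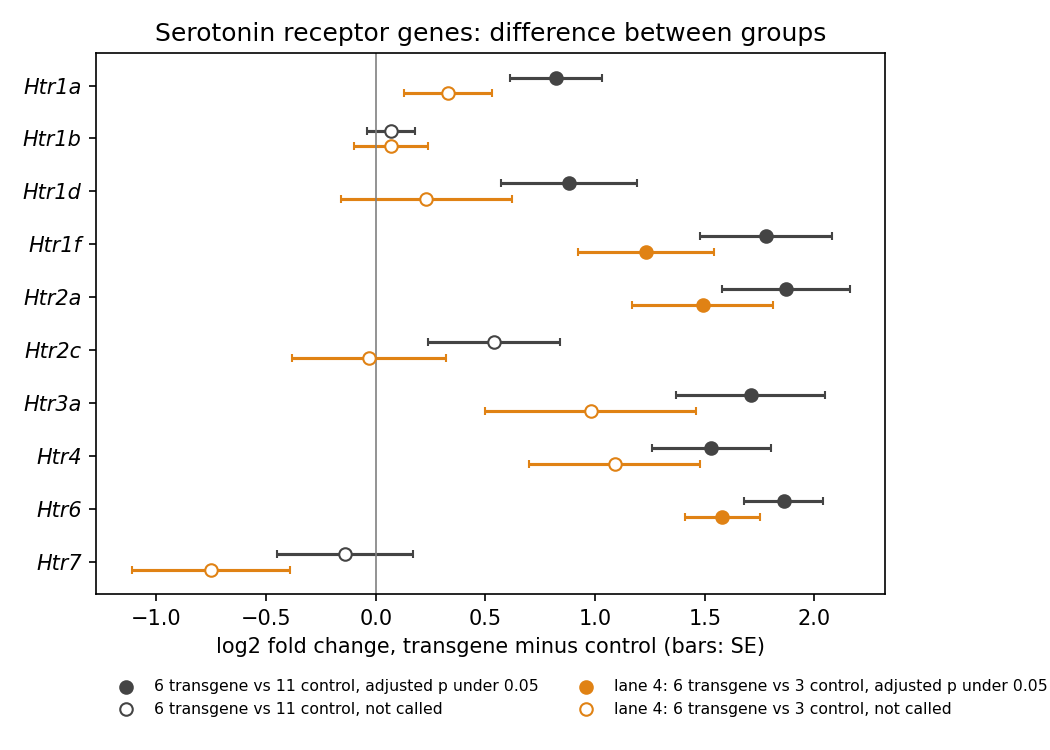
log2 fold change of transgene minus control (bars, SE) for each receptor gene, over all 17 libraries (grey) and on lane 4 (orange); filled points have an edgeR adjusted p under 0.05. Htr1f, Htr2a and Htr6 are filled in both comparisons, and the values of Htr1b nearly coincide, while the other 9 members lie further left on lane 4.

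Levels can be compared between genes only per length, and only for the 4 members with nearly all exon bases in a single row. Per kilobase, Htr2a stood at 11.3 ± 3.43 CPM in transgene libraries (SD, n = 6) and 3.08 ± 1.73 CPM in controls (SD, n = 11), and Htr1a at 9.49 ± 0.963 and 5.38 ± 2.22 CPM. Htr1f followed with 2.50 ± 0.583 CPM per kilobase in transgene libraries and 0.730 ± 0.430 in controls, and Htr4 with 1.41 ± 0.553 and 0.489 ± 0.205. The order of the upper pair differed between the groups. Htr1a was below Htr2a in 4 of 6 transgene libraries and above it in 10 of 11 controls, with a median ratio of Htr1a to Htr2a of 0.891 in transgene libraries and 1.83 in controls. Htr1f and Htr4 did not separate in either group, since Htr1f was the higher in 5 of 6 transgene libraries and 8 of 11 controls.

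The members also varied from library to library within the controls. Control 7 was the highest control for 6 members, Htr1a, Htr1d, Htr2c, Htr3a, Htr4 and Htr7. Control 3 was the highest for Htr1f and Htr2a and the lowest for Htr1b, Htr2c, Htr4 and Htr7. Over the 11 controls, 40 of 45 pairs of members had a positive correlation of log2 CPM, with a median r of 0.43. By Pearson r 3 pairs passed after adjustment over the 45 (two-sided permutation test). Htr1f and Htr6 passed by rho alone, with rho = 0.85 (permutation adjusted p = 0.0335) and r = 0.73 (permutation adjusted p = 0.115). All values share library depth and the TMM scaling.

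Htr1a and Htr4 were the pair called by both measures, with r = 0.82 (permutation p = 0.00212, adjusted p = 0.0495) and rho = 0.86 (permutation p = 0.001, adjusted p = 0.0335). Their r was 0.69 without the 2 controls farthest from the median of Htr1a, and 0.65 within the 6 controls of lane 8 (exact permutation p = 0.168). Htr1f and Htr2a had r = 0.80 (permutation p = 0.0033, adjusted p = 0.0495) and rho = 0.75 (permutation p = 0.0113, adjusted p = 0.127), with r = 0.66 without the 2 farthest controls and r = 0.92 within lane 8 (exact permutation p = 0.0111). Htr2c and Htr7 had r = 0.81 (permutation p = 0.00247, adjusted p = 0.0495) and rho = 0.67 (permutation p = 0.0276, adjusted p = 0.207), with r = 0.51 without controls 3 and 7 and r = 0.72 within lane 8 (exact permutation p = 0.0917). The other lanes held 3 or fewer controls, too few for a value.

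Against 7 lists of regional or cell type markers, 5 of 70 relations passed by Pearson r and 2 by both measures. Passing by rho alone were Htr7 with the hindbrain Hox genes and Htr6 with the striatal projection neuron genes. Htr7 had rho = 0.84 (permutation adjusted p = 0.0476) and r = 0.73 (permutation adjusted p = 0.0676). Htr6 had rho = 0.83 (permutation adjusted p = 0.0476) and r = 0.75 (permutation adjusted p = 0.0674). Htr4 followed the serotonin neuron genes, such as Tph2, with r = 0.94 (permutation p = 1e-05, the smallest the test can give, adjusted p = 0.0007) and rho = 0.94 (permutation p = 0.00012, adjusted p = 0.0084). Its r was 0.91 without controls 3 and 7 and 0.93 within lane 8 (exact permutation p = 0.00694). Between the groups the values ran the other way: the serotonin neuron genes summed to 10.1 to 38.1 CPM in transgene libraries and 18.1 to 194.3 CPM in controls, where Htr4 was lower. Htr1a followed the striatal projection neuron genes with r = 0.87 (permutation p = 0.0006, adjusted p = 0.014) and rho = 0.85 (permutation p = 0.0021, adjusted p = 0.0476). Its r was 0.81 without the 2 farthest controls and 0.90 within lane 8 (exact permutation p = 0.0153). Htr1a ran against the cerebellar granule cell genes with r = -0.73 (permutation p = 0.00058, adjusted p = 0.014) and rho = -0.78 (permutation p = 0.00631, adjusted p = 0.0808), with -0.63 without the 2 farthest controls and -0.92 within lane 8 (exact permutation p = 0.0125).

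Htr2a and Htr1f ran against the choroid plexus genes, whose summed level was 21.3 to 1858 CPM in transgene libraries and 69.5 to 4044 CPM in controls. For Htr2a r was -0.88 (permutation p = 0.00085, adjusted p = 0.0149) and rho -0.74 (permutation p = 0.0127, adjusted p = 0.104). Without controls 3 and 7 it was -0.49, so the relation rests in large part on those libraries, and within lane 8, which holds control 3, it was -0.99 (exact permutation p = 0.00556). For Htr1f r was -0.78 (permutation p = 0.00212, adjusted p = 0.0297) and rho -0.75 (permutation p = 0.0119, adjusted p = 0.104), with -0.69 without the same controls and -0.88 within lane 8 (exact permutation p = 0.025). Htr2c, the member best known from the choroid plexus, had r = -0.08 with these genes (permutation p = 0.812, adjusted p = 0.888) and rho = -0.22 (permutation p = 0.521, adjusted p = 0.651). With the low count of Htr2c, such a relation may not be detectable at this depth.

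**Figure D4:**
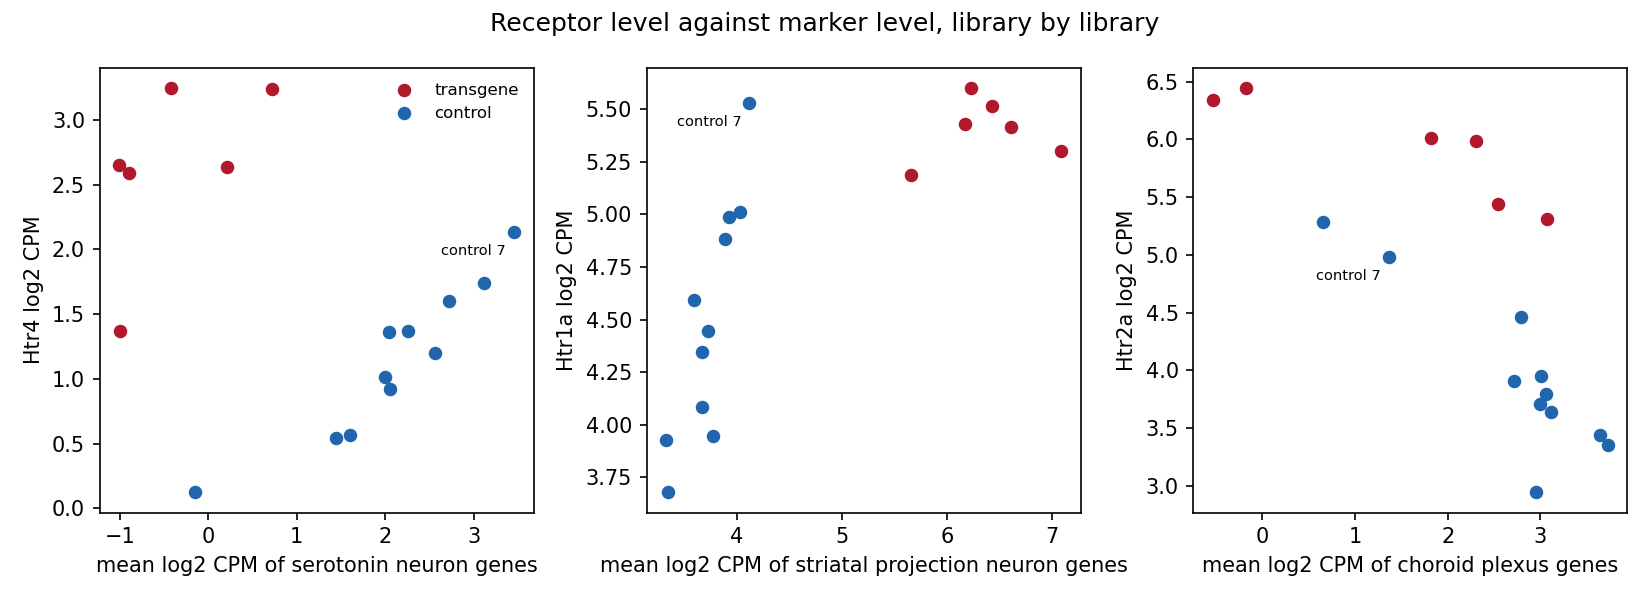
log2 CPM of Htr4, Htr1a and Htr2a against the mean log2 CPM of the serotonin neuron, striatal projection neuron and choroid plexus genes, with 1 point for each transgene (red, n = 6) and control (blue, n = 11) library. Among controls Htr4 and Htr1a rise with their list and Htr2a falls. No trend was fitted. For Htr4 all transgene libraries lie above control 3, the control of lowest serotonin neuron level. For Htr1a the groups share no range of striatal level, which reached 4.12 in controls and began at 5.66 in transgene libraries. For Htr2a, transgene libraries lie above controls of like choroid plexus level, except that transgene 2 and transgene 6 have no control of like level.

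As a description, the genes most like each member were sought over the 11 controls by Pearson r of log2 CPM among 12966 genes averaging 1 or more on that scale, and the 2 with the highest r are named. Htr1a was nearest to Cdh13 (r = 0.96) and Sst (0.95), Htr1f to Mgat5b (0.94) and Efna3 (0.94), and Htr2a to Pcdh10 (0.96) and Slc1a2 (0.95). Htr4 was nearest to C530008M17Rik and Commd1 (0.97 each), Htr6 to Abr (0.97) and Ntn3 (0.96), and Htr7 to Clic4 and Rit2 (0.97 each). The members with fewer reads or less spread had Eif4g2 (0.95) and Mipep (0.89) for Htr1b, Rtl8a (0.94) and Gp5 (0.87) for Htr1d, Washc5 (0.93) and Hhip (0.92) for Htr2c, and Ccs (0.94) and Map2k5 (0.93) for Htr3a. Over the 6 transgene libraries the r of these pairs ran from 0.91 for Htr7 with Rit2 to -0.67 for Htr1b with Mipep.

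The remaining serotonin receptor genes gave 1 call of 3 tested, out of 4 listed, against 47.4% of all features called over all libraries. Htr5a, a Gi-coupled receptor, averaged 37.8 ± 3.77 CPM in transgene libraries (SD, n = 6) and 19.8 ± 4.16 CPM in controls (SD, n = 11), and it rose over all libraries (log2 fold change 0.93 ± 0.12, edgeR adjusted p = 5.55e-06) and on lane 4 (0.74 ± 0.13, edgeR adjusted p = 0.00266). Htr2b had a log2 fold change of 0.05 ± 0.33 (edgeR adjusted p = 0.921) and Htr5b of -0.85 ± 0.59 (edgeR adjusted p = 0.254). Htr3b, the partner subunit of Htr3a, had 9 counts in transgene libraries and 11 in controls and was not tested.

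Of the genes that make, carry and break down serotonin, more fell than rose. Out of 15 listed, 13 were tested, 1 rose and 8 fell over all libraries, with a median log2 fold change of -0.42. On lane 4, 1 rose and 7 fell. Of all features tested, 24.4% were called lower over all libraries and 12% on lane 4. Tph2, the rate-limiting enzyme of serotonin synthesis in neurons, averaged 1.26 ± 0.263 CPM in transgene libraries (SD, n = 6) and 27.8 ± 21.9 CPM in controls (SD, n = 11), and fell by 4.47 ± 0.66 on the log2 scale (edgeR adjusted p = 2.23e-05). Slc6a4, the serotonin transporter, had 0 counts in transgene libraries and 63 in controls. Set against a floor of 3 counts over the transgene group, 0.0254 CPM, it was at least 11.1-fold lower, and it was not tested. Fev, a transcription factor of serotonin neurons, fell by 3.34 ± 0.66 (edgeR adjusted p = 0.000383), and the serotonin neuron list as a whole had 6 of 7 tested genes lower. Slc29a4, a low-affinity monoamine transporter, fell by 1.56 ± 0.19 (edgeR adjusted p = 3.65e-06). Slc18a1, a vesicular monoamine transporter, fell by 2.16 ± 0.32 (edgeR adjusted p = 2.52e-05). Gch1, which makes a cofactor of serotonin synthesis, fell by 1.11 ± 0.20 (edgeR adjusted p = 0.000163), and Maoa, the oxidase that degrades serotonin, fell by 0.42 ± 0.08 (edgeR adjusted p = 0.000249). The gene that rose was Slc22a3, another low-affinity transporter, with a log2 fold change of 1.69 ± 0.27 (edgeR adjusted p = 6.41e-05).

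Of 17 listed genes for proteins that bind, fold or regulate receptors, not all of them serotonin receptors, 14 were tested. Of these, 4 rose and 1 fell, against 47.4% of all features called. The median log2 fold change was 0.14. Jakmip1, listed as a receptor partner with no tie to a serotonin receptor shown here, rose by 1.43 ± 0.15 (edgeR adjusted p = 7.42e-07). Rgs4, a brake on Gi and Gq signals, rose by 2.06 ± 0.23 on the log2 scale (edgeR adjusted p = 1.06e-06), and Dlg4, the postsynaptic scaffold that binds Htr2a, by 1.37 ± 0.19 (edgeR adjusted p = 1.29e-05). Ric3, a chaperone of ligand-gated channels including Htr3a, fell by 0.40 ± 0.07 (edgeR adjusted p = 0.000136). Fkbp5, a chaperone of steroid receptors, rose by 0.72 ± 0.28 (edgeR adjusted p = 0.039). S100a10, which binds Htr1b and Htr4, had a log2 fold change of 0.08 ± 0.17 (edgeR adjusted p = 0.715).

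Downstream of the receptors, each effector list had more members higher than lower. Of all features tested over all libraries, 23% were called higher and 24.4% lower. The shares on lane 4 were 13.6% and 12%. Of the Gi effectors 8 rose and 3 fell out of 14 tested (median log2 fold change 0.52), and 7 rose on lane 4. Gng2, a G protein subunit, rose by 1.01 ± 0.13 (edgeR adjusted p = 3.98e-06) and Gnao1, an abundant Gi-class subunit of brain, by 0.39 ± 0.05 (edgeR adjusted p = 3.27e-06). Gnaz, another subunit of the class, rose by 0.76 ± 0.10 (edgeR adjusted p = 3.98e-06) and Cacna1b, a presynaptic calcium channel that these receptors inhibit, by 1.00 ± 0.20 (edgeR adjusted p = 0.000444). Of the potassium channel subunits opened by Gi-coupled receptors, Kcnj6 rose by 0.84 ± 0.18 (edgeR adjusted p = 0.000986) and Kcnj9 had a log2 fold change of 0.41 ± 0.18 (edgeR adjusted p = 0.0738). Rgs8, a regulator strong in Purkinje cells, fell by 2.15 ± 0.39 (edgeR adjusted p = 0.000191).

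Of the Gq effectors 8 rose and 3 fell out of 15 tested (median 0.44), and 7 rose and 3 fell on lane 4. Dgkb, a diacylglycerol kinase strong in striatum, rose by 1.92 ± 0.15 (edgeR adjusted p = 5.52e-08). The protein kinase C genes Prkca and Prkce rose by 1.27 ± 0.13 (edgeR adjusted p = 7.58e-07) and 1.12 ± 0.12 (edgeR adjusted p = 9.8e-07). Plcb1, the main phospholipase C form of the forebrain, rose by 1.33 ± 0.13 (edgeR adjusted p = 5.2e-07). Plcb4, a form strong in cerebellum and thalamus, fell by 1.37 ± 0.15 (edgeR adjusted p = 9.91e-07). Itpr3, a calcium release channel, fell by 1.71 ± 0.17 (edgeR adjusted p = 3.56e-07). Of the Gs effectors 12 rose and 1 fell out of 17 tested (median 0.48), and 8 rose and 1 fell on lane 4. The largest log2 fold changes of this list over all libraries were those of genes known from striatal projection neurons, Gng7 at 4.79 ± 0.32 (edgeR adjusted p = 1.3e-08), Pde10a at 1.90 ± 0.14 (edgeR adjusted p = 3.18e-08), Pde1b at 1.90 ± 0.16 (edgeR adjusted p = 1.32e-07) and Adcy5 at 1.80 ± 0.12 (edgeR adjusted p = 1.3e-08). The adenylyl cyclase gene Adcy2 rose by 1.28 ± 0.13 (edgeR adjusted p = 5.59e-07) and the phosphodiesterase gene Pde4b by 0.57 ± 0.07 (edgeR adjusted p = 2.42e-06). These lists contain genes that the striatal marker list also holds, such as Pde10a.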

How the data were processed

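RNA from mouse brain was sequenced in 17 libraries, 6 transgene and 11 control, grouped by the treatment label. The authors deposited raw counts per transcript, one table per library, on mm10 per the submitters' processing notes. The aligner, counter, annotation and strand setting were not given in the sources used here. Of 64505 Ensembl rows, 64380 were matched by name to the GENCODE annotation on the same assembly and summed to 41015 genes. Rows of assembled loci stayed as features, and 5 closing rows that name no feature were left out; among them, reads on several features made up 40.2% to 43.4% and reads outside any feature 5.29% to 11.1% of each library. Assigned counts were 17067407 to 22642441 per library, and floors cover counting error only.

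Features were tested with edgeR 4.0.16 in R 4.3.3 (quasi-likelihood F test, TMM, default expression filter, Benjamini-Hochberg adjustment over all features, threshold 0.05), over all libraries and on lane 4. The SE comes from the F statistic. A prior count of 2 was added for log2 CPM. Correlations used 100000 permutations, or all permutations within lane 8. DESeq2 1.42.0 and limma 3.58.1 were alternatives, and the fitting steps were tested on simulated data. No pair of libraries in a group agreed within sampling noise. The members and gene lists were chosen with earlier results of these data known. Named from each pathway list were up to 6 called genes of lowest adjusted p and genes tied to a receptor by their role.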

Additional observations from a re-analysis of the deposited data

Results flagged for a closer look

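Of 83 genes examined in the 6 transgene libraries, 9 had a library that lay far from the other 5 by Dixon's test, and chance gives such a gap in about 1 of 20 groups. Among the receptors this was Htr4, whose lowest value was 1.37 log2 CPM in transgene 6, against 2.59 in the next library. Transgene 1 was the highest for Lmx1b (1.60 log2 CPM, next 0.06) and Slc18a2 (4.54, next 3.16), genes of serotonin and other monoamine neurons, and the lowest for Prkca (7.77, next 8.22). Transgene 3 was the highest for Rgs8 (4.65 log2 CPM, next 3.85) and Itpr3 (5.03, next 4.43). Transgene 2 was the lowest for Slc29a4 (3.79 log2 CPM, next 4.78). Transgene 6 was the highest for Efna3 (7.15 log2 CPM, next 6.75), and transgene 4 the lowest for Map2k5 (5.44, next 5.65).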

How the results depend on the processing

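Each member was refitted under 27 alternatives over all libraries, and 256 of these 270 values kept their direction and their side of the threshold. Htr1f, Htr2a, Htr4 and Htr6 kept both under all 27. With the lane and flow cell as a term of the fit, 4 members were called instead of 7 and 4 transcript rows instead of 8. In these fits 30.8% of all features and 28.2% of all rows were called. Only lane 4 held transgene libraries, so with this term the group difference rests on the lane 4 controls, as in the lane 4 comparison. Htr1a came to 0.354 (log2 fold change, here and below, edgeR adjusted p = 0.32), Htr1d to 0.251 (0.655 adjusted), Htr3a to 1.006 (0.101 adjusted) and Htr2c to -0.012 (0.986 adjusted). With library size as the only scaling the median over all features moved to -0.16, and Htr1b to -0.039. Counting only the highest transcript row of a gene gave 0.808 for Htr2c (0.0281 adjusted) over all libraries and 0.134 on lane 4, where limma-voom gave 0.089. The causes were not tested.

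Leaving out 1 library at a time, 6 to 8 members were called over all libraries and 3 to 6 on lane 4, where 6 was reached without control 7. The share of all features called ran from 42% to 50.2% over all libraries and from 18.6% to 24% on lane 4. It was 20.7% on lane 4 without control 7. Over all libraries the values ranged from 0.751 to 0.981 for Htr1a, 0.021 to 0.17 for Htr1b, 0.621 to 1.074 for Htr1d, 0.468 to 0.785 for Htr2c, 1.587 to 2.099 for Htr3a and -0.323 to 0.073 for Htr7. Htr1d lost its call without transgene 2, and without control 7 Htr2c gained a call and Htr7 turned to 0.073. On lane 4 they ranged from -0.031 to 0.174 for Htr1b, -0.059 to 0.516 for Htr1d, -0.293 to 0.544 for Htr2c, 0.104 to 0.652 for Htr1a, 0.644 to 1.956 for Htr3a, 0.846 to 1.43 for Htr4 and -1.069 to -0.33 for Htr7, which was called lower without control 8 (0.0395 adjusted). On lane 4, Htr2c was 0.011 without transgene 1 and Htr1b was -0.007 without transgene 2.

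Alternatives added after seeing the data left out libraries that stand apart. Without control 7 and transgene 3, low and high in cerebellar genes for their groups, Htr1d was 1.195, Htr2c 0.791 (0.0216 adjusted) and Htr7 0.076. Without the choroid-poor control 3, transgene 2 and transgene 6, Htr1d was 0.436 (0.316 adjusted), Htr1b -0.015 and Htr7 0.011. On lane 4 without transgene 2 and transgene 6, Htr1f lost its call at 1.091 (0.0628 adjusted), Htr4 gained one at 1.307 (0.0233 adjusted), Htr1b was -0.012 and Htr1d -0.186. DESeq2 called 4 members on lane 4, Htr4 among them, against 29.1% of all features.

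The first number in the titles was tried as a replicate block, although the labels do not say that it pairs libraries. Deviations of same-numbered libraries correlated at -0.094 for number 4 and at 0.101, 0.242, 0.128 and 0.121 for numbers 5, 6, 7 and 8. The main fit did not use the number, and whether it pairs libraries is not known. With the replicate block, 7 members were called, as without it, and 7503 of all features against 9078.

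Counts limit Htr1d, Htr2c and Htr3a most, with 88 to 186 in a group.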
